A study of Mus musculus with 36 samples.

Results

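The genes described here are 7 markers of ionocyte-like cells, Ascl3, Foxi1, Foxi2, Atp6v1b1, Atp6v1g3, Slc4a11 and Hepacam2, taken as a named list from the 31102 genes of the single-cell tables of mouse submandibular gland. The series compared glands of double-mutant mice, which carry a gain-of-function allele of β-catenin and a loss of function of Bmpr1a and develop salivary gland tumors, with control glands. Both alleles were recombined by K14-Cre, whose promoter is active in basal epithelial cells, and the labels do not say which of the duct cells described here were recombined. Control mice carried K14-Cre together with a Cre-inducible R26 EYFP reporter, which the double mutants also carried, and all mice were on a C57BL/6 background. Drop-seq was done on 26 glands, 6 control and 7 double-mutant glands at postnatal day 40 (P40) and 6 control and 7 double-mutant glands at P90, each from 1 female or male mouse. CITE-seq, which counts RNA and antibody tags in the same cells, was done on 2 control and 2 double-mutant glands at about P70. For bulk RNA, 1 library was made of a control gland at P70 and 1 of a double-mutant gland at P100, both labelled female.

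Ionocytes are rare epithelial cells rich in mitochondria and in the vacuolar proton pump (V-ATPase), and are best known from the airway, where they hold much of the chloride channel Cftr. Their closest relatives are the intercalated cells of the kidney collecting duct, which secrete acid or base with the same pump. In both, the forkhead factor Foxi1 is needed for the cell type and for the expression of pump subunits, and in the salivary gland the basic helix-loop-helix factor Ascl3 marks a subset of duct cells. Of the other genes, Foxi2 encodes a forkhead relative of Foxi1, Atp6v1b1 and Atp6v1g3 encode the tissue-restricted B1 and G3 subunits of the cytosolic part of the pump, Slc4a11 encodes an ion transporter of the bicarbonate transporter family, and Hepacam2 encodes a membrane protein of the immunoglobulin superfamily that is also found in kidney intercalated cells.

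The genes lie apart in the genome (mm10, exon records of the bulk tables). Ascl3 lies at chr7:109727465-109731732 on the minus strand and Foxi2 at chr7:135410367-135413615 on the plus strand. Foxi1 lies at chr11:34204338-34208089 on the minus strand and Slc4a11 at chr2:130684113-130697519 on the minus strand. Atp6v1b1 lies at chr6:83743017-83758809 on the plus strand, Hepacam2 at chr6:3457096-3498298 on the minus strand, and Atp6v1g3 at chr1:138273738-138289462 on the plus strand.

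Because forkhead factors and pump subunits were detected in the same cells, the promoters of the genes were searched for the forkhead core letters TGTTTA on either strand. RefSeq (GRCm38.p6) gave a window of 300 bases, from 250 before to 50 after the gene start, for 6 of the 7 genes, and none was used for Slc4a11. The letters were found in 13.4% of all 32851 promoter windows and in 2 of these 6, those of Ascl3 and Atp6v1b1, which are shown with the letters, or their reverse complement, in capitals. A match is a description of the sequence and not of binding.
Ascl3 promoter (chr7:109731683-109731982, minus strand): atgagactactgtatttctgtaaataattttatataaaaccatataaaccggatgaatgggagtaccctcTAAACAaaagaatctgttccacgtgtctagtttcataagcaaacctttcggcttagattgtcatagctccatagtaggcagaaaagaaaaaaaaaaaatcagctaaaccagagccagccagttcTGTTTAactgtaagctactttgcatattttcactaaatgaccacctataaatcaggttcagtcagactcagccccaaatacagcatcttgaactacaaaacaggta
Atp6v1b1 promoter (chr6:83742767-83743066, plus strand): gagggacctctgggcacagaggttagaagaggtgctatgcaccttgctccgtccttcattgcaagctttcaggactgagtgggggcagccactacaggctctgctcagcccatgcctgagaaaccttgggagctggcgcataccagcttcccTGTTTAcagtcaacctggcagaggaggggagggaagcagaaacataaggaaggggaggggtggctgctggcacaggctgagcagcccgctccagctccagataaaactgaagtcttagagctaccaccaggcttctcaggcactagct
The Ascl3 window held the letters on its own strand from position -56 and on the other strand from position -180 relative to the gene start, and the Atp6v1b1 window held them once, from position -98. The E-box letters CAGCTG, a core that helix-loop-helix factors can bind, were in 16.3% of all windows and in 1 of the 6, that of Hepacam2, from position -31. The Hepacam2 window (chr6:3494449-3494748) lies inside the gene span given above, and its position is relative to the RefSeq start there.

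A total of 23346 Drop-seq cells and 2535 CITE-seq cells passed the filters, with 606 to 1209 cells and 650301 to 6994504 unique molecular identifiers (UMIs, one per captured transcript) per Drop-seq gland. Between libraries, 20 of 435 pairs shared a cell barcode, never more than 1 barcode per pair. The double-mutant P40 replicate 1 and the double-mutant P90 replicate 5 held sex-linked transcripts that went against their labelled sex. Both came from the same batch, the first had the Xist of a female and the second the Y-linked transcripts of a male, so that an exchange of a P40 and a P90 gland cannot be told apart from errors in the labelled sex. The double-mutant P90 replicate 4, which had a median of 482 UMIs per cell and a ribosomal protein gene share of 8.21%, held no UMI of Ascl3, Foxi1, Foxi2, Atp6v1g3 or Hepacam2 and 856 cells of which none had 2 of the 7 genes. The results that rest most on these libraries are also given without them.

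All 7 genes were found mainly in 2 groups of duct cells. Cells were clustered with the 7 genes held out, which gave 28 clusters. The cluster with the highest summed level, named ductal Smgc+/Esp4+-like from its markers and led by Cfd, Gm12888, Hp and Fgg, had 2471 cells from all 26 glands. It held between 53.1% (Slc4a11) and 60.9% (Foxi2) of each gene's UMIs. The next, named ductal Klk1+-like and led by Klk1, Scgb1c1 and Fxyd2, had 2062 cells and held 17.6% (Foxi2) to 22.5% (Foxi1). The name of the first cluster does not describe the cells with 2 or more of the genes, in which Smgc was at 997 CPM against 4918 CPM in the other cells and Klk1 at 47810 CPM against 12796 CPM. Since the clusters were drawn from these cells, the levels are a description without a test.

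Levels were given as CPM, the UMIs of a gene scaled to a common total of the UMIs of a cluster, as the mean ± SD over glands with at least 10 cells in it. UMI counts are not scaled by gene length, so that each gene is compared only with itself. Ascl3 was at 239 ± 186 CPM (n = 26 glands) in the first duct cluster and at 90.4 ± 87.9 CPM (n = 23) in the second. Foxi1 was at 124 ± 78.2 and 45.5 ± 45.4 CPM, and Foxi2 at 71.2 ± 54.7 and 25.6 ± 25.9 CPM. The spread between glands was thus as large as the mean for the transcription factors in the second cluster. Of the pump subunits, Atp6v1b1 was at 75.5 ± 41.5 CPM in the first and 27.3 ± 17.1 CPM in the second cluster, and Atp6v1g3 at 112 ± 125 and 37.7 ± 55.7 CPM. Slc4a11 was at 133 ± 77.3 and 46.6 ± 50.1 CPM, and Hepacam2 at 139 ± 79.5 and 56.4 ± 50.9 CPM.

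**Figure D1:**
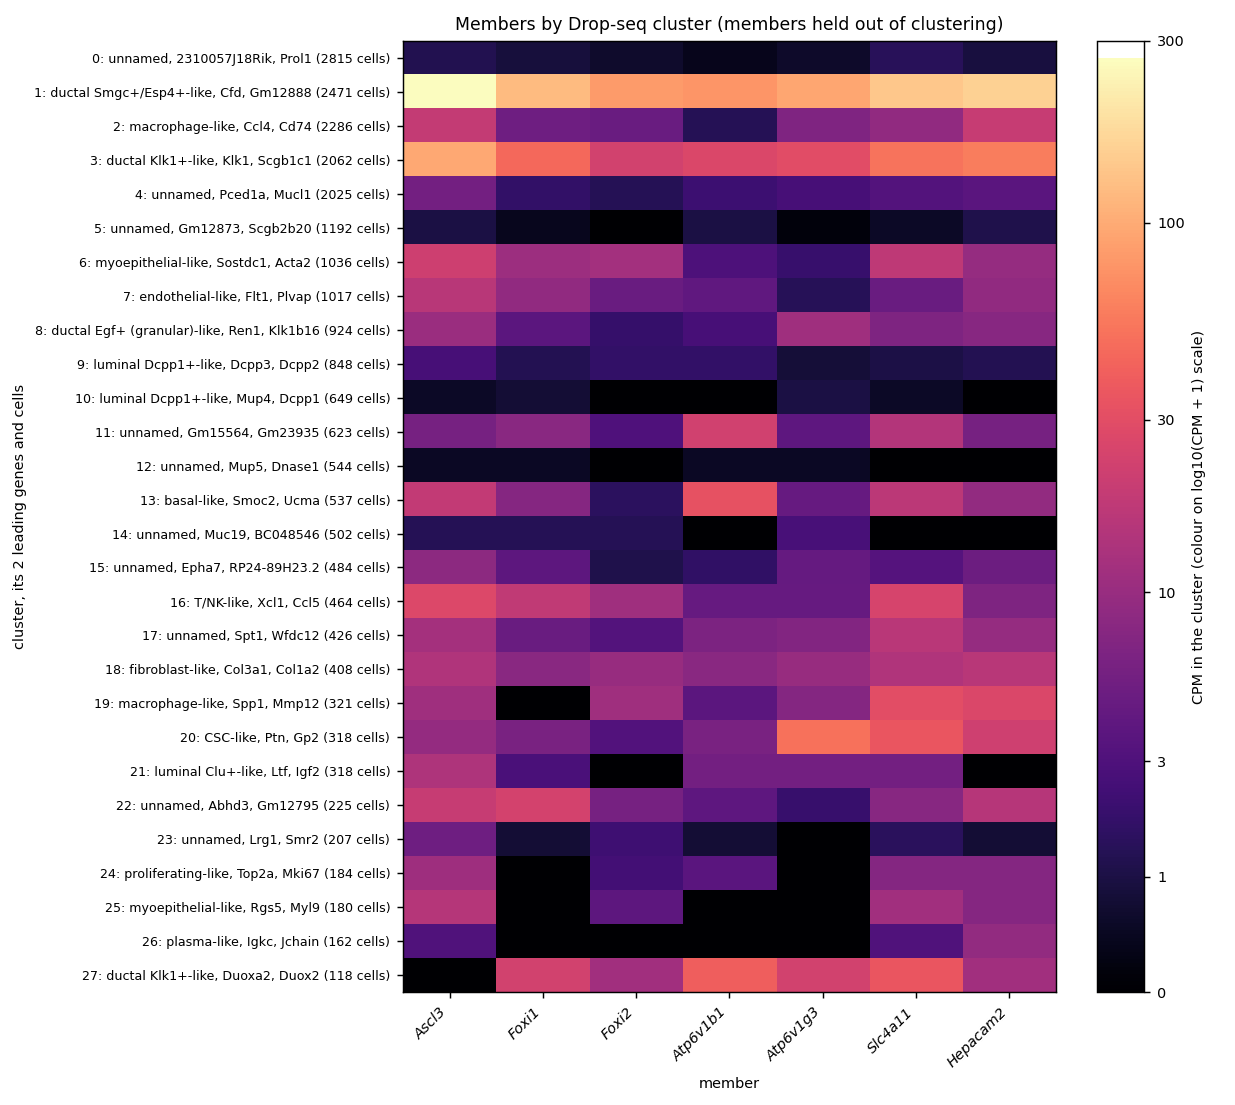
Level of each gene (columns, CPM over all cells of a cluster, colour on a log10(CPM + 1) scale) in the 28 Drop-seq clusters (rows, with name, 2 leading genes and number of cells). The brightest row for every gene is the ductal Smgc+/Esp4+-like cluster, in which Ascl3 is at 269.8 CPM, and the ductal Klk1+-like cluster led by Klk1 follows for Ascl3 at 96.1 CPM.

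Outside the ducts the genes were found in few cells. In endothelial-like cells, which should lack them, 1.38% of 1017 cells (95% exact interval 0.755 to 2.3%) had a UMI of Ascl3 and 0.885% had one of Foxi1, at a median of 725 UMIs per cell, against 16.6% (15.1 to 18.1%) and 10% of the first duct cluster at a median of 1076 UMIs. These intervals cover counting error only. The larger macrophage-like cluster had a UMI of Ascl3 in 0.831% and of Hepacam2 in 1.49% of its 2286 cells, against 0.787% of endothelial-like cells for Hepacam2. In the basal-like cluster, which is marked by Krt14, 2.98% of 537 cells held a UMI of Atp6v1b1, against 0.393% (0.107 to 1%) of endothelial-like cells, and 0.931% one of Foxi1. The cancer stem cell-like (CSC-like) cluster had Atp6v1g3 at 50.6 CPM, a value that came from 16 UMIs in 2 of 318 cells (0.629%, exact interval 0.0763 to 2.25%, against 0.0983% of endothelial-like cells).

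When the clustering was made finer (37 clusters), 538 of the 913 cells with 2 or more of the genes fell in 1 cluster of 2062 cells led by Fxyd2, Cox7a1, Nrip3 and Atp6v0d2, and 129 in a second led by Esp4 and Fgg. By their markers the finer clusters were named ductal Klk1+-like (538) and ductal Smgc+/Esp4+-like (129). At the main setting these numbers were 533 in the ductal Smgc+/Esp4+-like and 194 in the ductal Klk1+-like cluster. The name of the richest cluster thus changed with the setting. Of the cells of the finer cluster, 26.1% had 2 or more of the genes. This share counts cells with UMIs and is not the share of cells that express the genes. Of the cells with at least 2 of the other 6 genes, 35.9% had a UMI of Foxi1 and 24.5% one of Foxi2.

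The genes were detected together. Of 23346 Drop-seq cells, 21646 held none of the 7 genes, 787 held 1, 383 held 2, 279 held 3, 154 held 4, 80 held 5 and 17 held 6. Among the 1700 cells with at least 1 gene, 913 had 2 or more, and per gland this share was 47.9 ± 17.2% (SD, n = 26). For each of the 42 ordered pairs of genes, the second gene was detected in 10.4 to 62.3% of the cells with the first, and in 0.509 to 2.75% of the cells without it. The ratio of these shares was 8.56 to 48.4, with a median of 22.2. Counting each pair in each gland with at least 5 cells of the first gene, the share was higher in cells with it in 861 of 954 cases. Co-detection is described here without a test, since the cells of a gland share their library and deeper cells detect more of every gene.

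Ascl3, which was detected in the most cells (771), was also the gene most often found in the cells with each of the others. It was detected in 62.3% of the 305 cells with Foxi2, in 54.3% of the 634 cells with Hepacam2, in 53.3% of the 452 cells with Foxi1, in 50% of the 312 cells with Atp6v1g3 and in 48.9% of the 601 cells with Slc4a11, compared with 1.88 to 2.67% of cells without these genes. The forkhead pair overlapped less: Foxi2 was found in 22.8% of Foxi1 cells and Foxi1 in 33.8% of Foxi2 cells. The pump subunit Atp6v1b1 was joined least tightly. It was found in 14.4 to 21% of the cells with another gene, and the pair Atp6v1b1 and Atp6v1g3, both subunits of the same part of the pump, had the lowest share of all, 10.4% of 433 Atp6v1b1 cells, against 1.17% of the others. Only 54.3% of the Atp6v1b1 UMIs lay in cells with another of the 7 genes, compared with 82.1 to 93.4% of the UMIs of the other 6 genes.

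The cells with 2 or more of the genes had a median of 1262 UMIs against 1546 in the others, but 1339.5 against 1143 in double-mutant glands, and the cells with 5 or 6 of the genes had medians of 1828.5 and 1983 UMIs. With every cell thinned to 500 UMIs, the second gene was still found in 6.14 to 43.9% of cells with the first and in 0.366 to 1.76% of cells without it, with a median ratio of 21.1. The median ratio was 16.9 in control and 29.9 in double-mutant glands, and 32.2 in the 4 CITE-seq glands, where 48 of 2535 cells held 2 or more of the genes. The median share in cells with the first gene differed little, at 26.4, 29.9 and 28.2% in the same order. In cells without it, the median share fell from 1.77 to 1.15 and 0.64%.

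**Figure D2:**
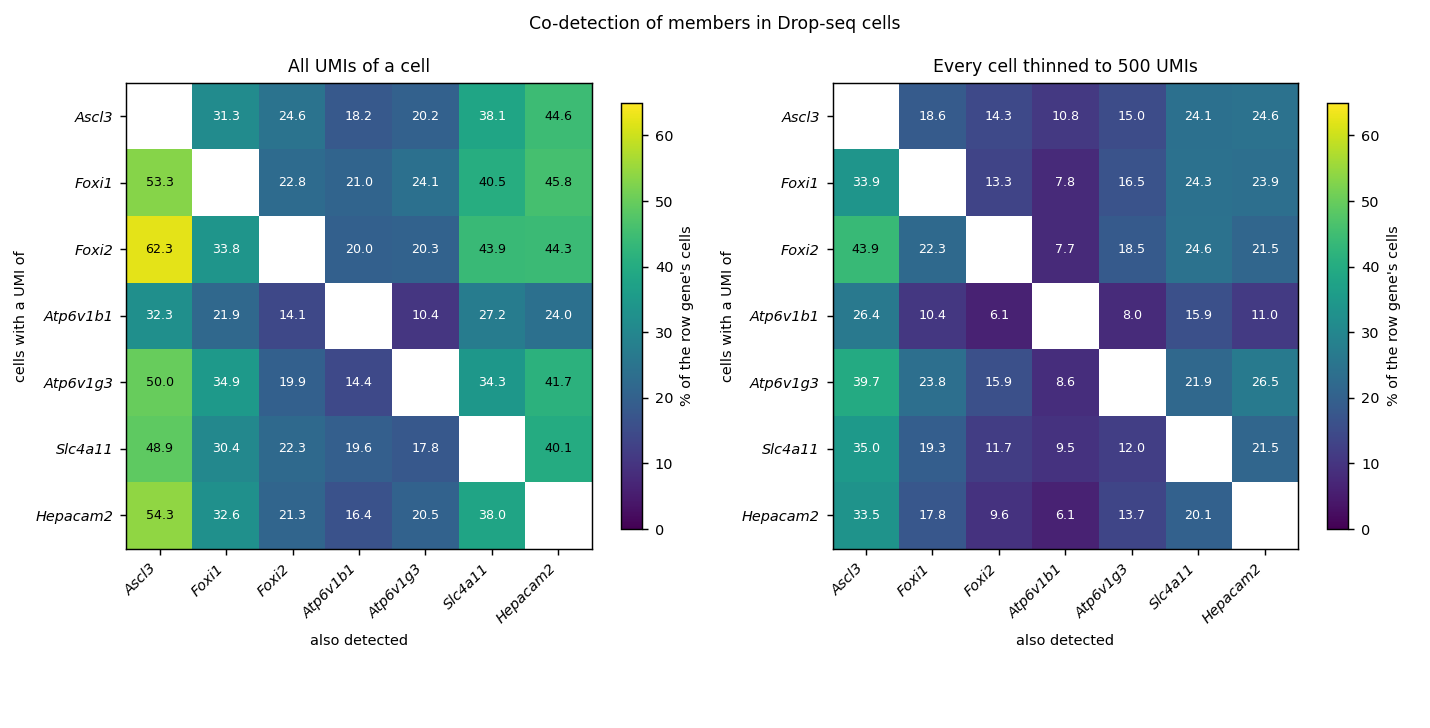
Percentage of the Drop-seq cells with a UMI of the row gene that also had a UMI of the column gene, with all UMIs of a cell (left) and with every cell thinned to 500 UMIs (right). The Ascl3 column is the brightest, up to 62.3% in Foxi2 cells, and the lowest value in the left panel is Atp6v1g3 in Atp6v1b1 cells, at 10.4%.

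The cells with 2 or more of the genes differed from the other cells of the same gland in many genes that had not been used to choose them. UMIs were summed per gland and cell class over the 23 glands with at least 10 such cells (902 cells), and edgeR's quasi-likelihood test was run with the gland as a block and the 7 genes left out. Of 3341 genes tested, 48.4% were called at an adjusted p under 0.05, 20.7% as higher and 27.7% as lower in these cells. The scale matters here: TMM scaling sets the typical gene near 0, whereas scaling by library size alone moved the median gene up by 1.45 on the log2 scale, so that 690 higher and 927 lower calls became 3005 and 121. All log2 fold changes below are on the TMM scale, relative to the typical gene. In plain CPM, the epithelial keratins Krt8, Krt18 and Krt7 were at 595, 1845 and 548 CPM, against 221, 550 and 58.2 CPM in the other cells. The basal keratins Krt5 and Krt14 were at 6.77 and 20.9 CPM, below the 12.6 and 34.3 CPM of the others. Plain CPM is the scale on which the median gene moved up by 1.45, so that the higher Krt8 and Krt18 are not read as a difference. Mitochondrial transcripts made up a median of 8.49% of the UMIs of the cells with 2 or more of the genes and 2.6% of those of other cells. The other cells were of all types, with summed acinar markers at 85678 CPM against 20371 CPM. No comparison with other duct cells alone was made. Whether the differences given here and below are shared by other duct cells was therefore not tested.

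Of the 20 genes taken by the naming rule, Gprc6a, which encodes an amino acid-sensing G protein-coupled receptor, had the largest log2 fold change, 5.66 ± 0.28 (SE; edgeR, adjusted p = 2.58e-20; higher in 22 of 23 glands). Kcnj8, a subunit of ATP-sensitive potassium channels that is also a pericyte marker, was higher by 5.48 ± 0.23, at 151 CPM against 1.22 CPM. The summed pericyte list was at 181 CPM in these cells and 26.9 CPM in the others, with 2 of its 5 genes higher, Kcnj8 included. Nrip3 (5.23 ± 0.20), the G protein subunit gene Gng4 (5.21 ± 0.23) and Rcan2, an inhibitor of calcineurin (4.66 ± 0.24), came next. Both retinoic acid-producing dehydrogenases Aldh1a3 (4.47 ± 0.22) and Aldh1a1 (3.53 ± 0.19) were on the list, as were the phosphodiesterase Pde1c (4.32 ± 0.15) and the growth factor Fgf10 (4.11 ± 0.26). The remaining genes were Ckap2, Cpxm2, Stap1, Tmprss13, Plxna4, Itih5, Gria3, Coch, Asgr1, Pdlim3 and Serpinb9, with log2 fold changes of 3.26 to 4.28. All 20 were higher in at least 21 of the 23 glands. The 5 lowest genes were the immunoglobulin genes Jchain (-7.05 ± 0.23), Igkc and Igha and the secretory genes Dcpp3 (-5.34 ± 0.52) and Dcpp1. The 20 highest stayed higher and the 5 lowest stayed lower without TMM.

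Most of the other V-ATPase genes that could be tested were higher in the same cells. Of 23 subunit and accessory genes on the list, 14 were expressed enough to be tested, 11 were higher and none was lower, against 20.7% of all genes that were called higher. Their median log2 fold change was 0.88, and that of all genes tested was -0.05. Atp6v0d2, a membrane-part subunit with restricted expression, stood out with 3.10 ± 0.14 (adjusted p = 5.55e-22), at 596 CPM against 25.5 CPM and higher in 23 of 23 glands. The accessory subunit Atp6ap2 followed (1.83 ± 0.11), then the catalytic subunit Atp6v1a (1.25 ± 0.11) and the stalk subunit Atp6v1e1 (1.17 ± 0.12). The B2 paralog of Atp6v1b1, Atp6v1b2, was at -0.15 ± 0.21 and was not called (adjusted p = 0.579), although its level was 34.8 CPM in these cells and 15.1 CPM in the others and it was higher by 1.26 without TMM. The same held for Atp6v1c1 (-0.05, or 1.42 without TMM) and Atp6v0d1 (-0.13, or 1.35). The G1 paralog of Atp6v1g3, Atp6v1g1, was higher (0.94 ± 0.15).

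Of 27 genes of the intercalated-cell and ionocyte list, 9 were tested, 7 were higher and 2 were lower. Many of the others were hardly detected in the gland at all. In the bulk libraries Slc4a1, Rhbg, Rhcg, Aqp6, Oxgr1, Hmx2 and Ascl2 had 0 reads in both. Slc26a4, Slc4a9 and Foxi3 had 1 read in 1 library, whereas Bsnd, also not tested here, had 605 and 213 reads. Among the higher genes were the adaptor Stap1 (4.23 ± 0.19), Coch (3.40 ± 0.42), the lectin gene Asgr1 (3.36 ± 0.18), the receptor kinase Kit (2.94 ± 0.22), the chloride channel Cftr (2.88 ± 0.18) and the transcription factor Tfcp2l1 (1.69 ± 0.12). Cftr was at 228 CPM in these cells against 12.1 CPM in the others and was higher in 23 of 23 glands. The lower genes were the carbonic anhydrases Car2 (-0.82 ± 0.26) and Car12 (-0.85 ± 0.19), which turned to 0.66 and 0.63 without TMM. The list was chosen with earlier results of these data known and is not independent evidence of its direction.

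**Figure D3:**
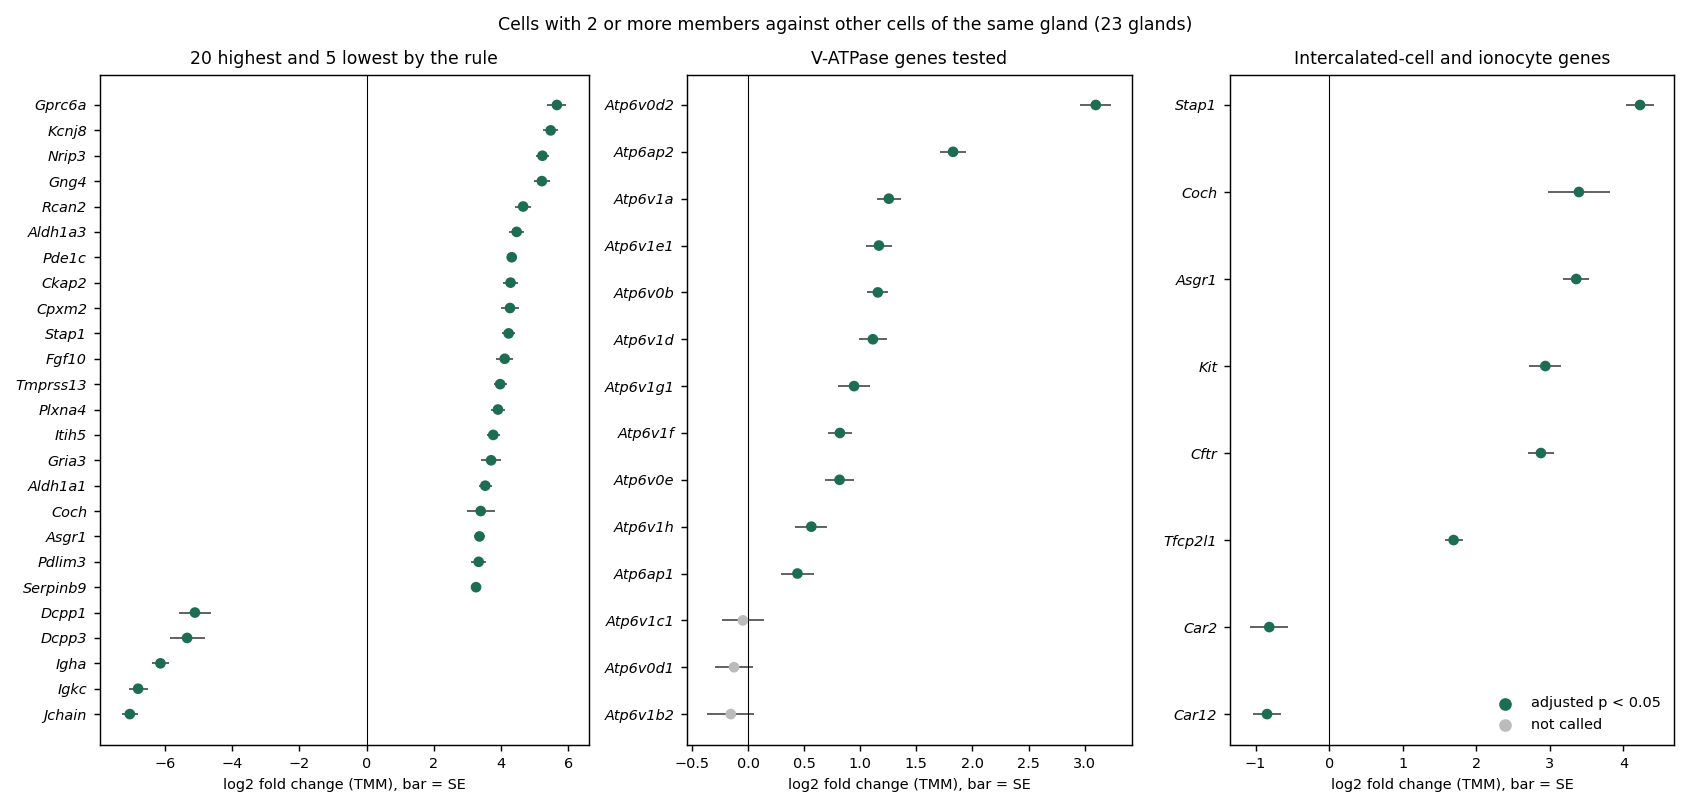
Log2 fold change with SE (TMM scale) between cells with 2 or more of the genes and the other cells of the same 23 glands, for the 20 highest and 5 lowest genes by the naming rule (left), the tested V-ATPase genes (middle) and 8 of the 9 tested intercalated-cell and ionocyte genes (right). Green points passed an adjusted p of 0.05. Atp6v0d2 lies at 3.10, apart from the other pump genes.

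The share of cells with 2 or more of the genes was 2.18 to 10.4% (median 4.25%) in the 6 control glands at P40 and 0.863 to 6.81% (median 5.54%) in the 6 at P90. In double mutants it was 1.41 to 6.96% (median 4.59%) in the 7 glands at P40 and 0 to 4.71% (median 1.65%) in the 7 at P90, whose mean was 1.73 ± 1.51%, or 2.02 ± 1.43% without replicate 4. In means, the control glands were at 4.93 ± 2.58% (SD, n = 12) and the double-mutant glands at 2.95 ± 2.23% (n = 14), or 3.18 ± 2.14% without the gland that had no such cell, for which 0 of 856 cells allows up to 0.43% by the exact interval. The lowest control gland lay within the range of the double-mutant P90 glands, so that the groups overlapped. No p is given for this share, which is a score over the genes.

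Depth and batch moved with these groups. The median UMI count per cell was 1514 to 4671 in control and 488 to 4036 in double-mutant glands at P40, and 843 to 2431 and 408 to 2781 at P90, and the ranges of the genotypes overlapped at both stages. With cells thinned to 500 UMIs, which left out 2070 cells of the double-mutant P90 glands and 3 cells of the control P40 glands, the means were 2.09 ± 1.98% (control P40), 2.97 ± 1.43% (control P90), 2.19 ± 1.18% (double mutant P40) and 1.03 ± 0.72% (double mutant P90), or 1.2 ± 0.6% for the latter without replicate 4. In the 5 processing batches that held both genotypes at 1 stage (3 at P40, 2 at P90), the double-mutant mean was lower than the control mean in 3, and in 2 of 4 without the batch whose only double-mutant gland was replicate 4 of P90. Each of these batches held 1 to 3 glands of a genotype at that stage. The 2 duct clusters together made up 21.8 ± 12.3% of the cells of control and 16.9 ± 9.12% of double-mutant glands, and within them 18.2 ± 6.92% and 14.1 ± 9.2% of cells had 2 or more of the genes (15.1 ± 8.6% in double mutants without that gland). Over all deposited barcodes, which keep cells of 15% or more mitochondrial UMIs, the share rose in some P90 glands and fell in others. It went from 4.71 to 6.2% and from 1.81 to 3.07% in double-mutant replicates 7 and 6, and from 1.94 to 1.75% in replicate 3. In control P90 replicates 1 and 6 it went from 6.81 to 7.83% and from 5.24 to 4.78%. The part of depth, batch, duct content and the cell filter in the lower P90 share was not tested.

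**Figure D4:**
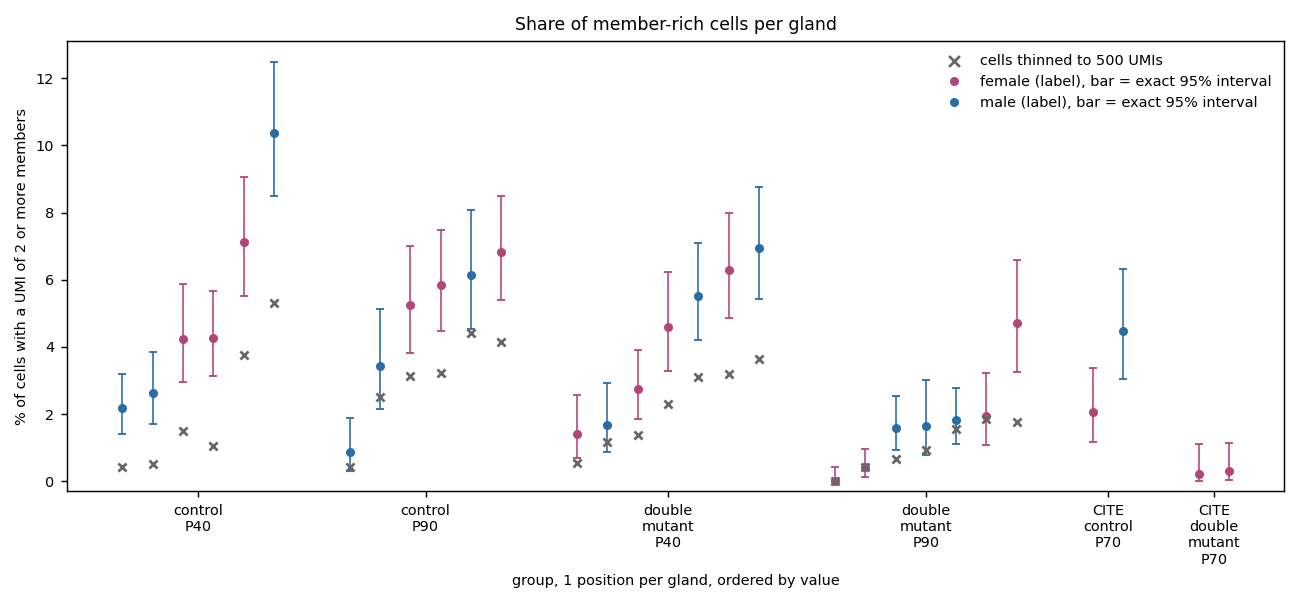
Percentage of cells with a UMI of 2 or more of the 7 genes in each gland (points, coloured by labelled sex, bars are exact 95% binomial intervals of counting error) and after thinning every Drop-seq cell to 500 UMIs (crosses). The double-mutant P90 glands lie between 0 and 4.71%, and 5 of the 6 control P90 glands between 3.43 and 6.81%.

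For the level of each gene in whole glands, UMIs were summed over the cells of a gland and tested across all genes with edgeR's quasi-likelihood test, with sex and stage as covariates. Fewer cells of a type and less RNA per cell cannot be told apart in such sums. None of the 7 genes was called between genotypes over the 26 glands, where 21.9% of 10940 genes were, 7.39% as lower. All 7 had a log2 fold change (double mutant over control) below 0 on the TMM scale, with a median of -0.49 against 0.02 for all genes, and 3 of them had an unadjusted p under 0.05, as had 37.5% of all genes. Without TMM the typical gene moved up by 0.66, the calls went from 1584 higher and 809 lower to 5747 and 50, and 4 of the 7 genes were below 0. DESeq2 called 2 of the 7, Foxi1 and Foxi2.

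The transcription factors had the lowest values. Ascl3 was at 1.9 to 69.1 CPM (median 20.2) in the 12 control glands and at 0 to 33.8 CPM (median 18.6) in the 14 double-mutant glands, with a log2 fold change of -0.98 ± 0.44 (SE, adjusted p = 0.102). Foxi1 was at 3.57 to 30.6 CPM (median 11.3) and at 0 to 17.0 CPM (median 8.84), with -0.88 ± 0.34 (adjusted p = 0.0602). Foxi2 was at 0.95 to 24.8 CPM (median 8.45) and at 0 to 11.7 CPM (median 4.47), with -1.07 ± 0.42 (adjusted p = 0.0662). For each of the factors the highest gland was a control and the ranges overlapped. The values of 0 came from the double-mutant P90 replicate 4 alone, and without it the lowest double-mutant glands were at 5.69 CPM for Ascl3 and 2.89 CPM for Foxi1, and the lowest of all glands was a control for Ascl3 and Foxi2. Without the 2 glands whose transcripts went against their labelled sex, or without the double-mutant P90 replicate 4, no gene was called either.

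The pump subunits and membrane proteins lay closer to 0. Atp6v1b1 was at 1.57 to 17.2 CPM (median 6.99) in control and 2.49 to 19.99 CPM (median 7.39) in double-mutant glands, with -0.38 ± 0.28 (adjusted p = 0.334). Atp6v1g3 was at 0.256 to 29.7 CPM (median 5.79) and 0 to 43.7 CPM (median 9.3), with -0.07 ± 0.49 (adjusted p = 0.944). Slc4a11 was at 1.0 to 55.3 CPM (median 11.1) and 2.52 to 35.6 CPM (median 15.5), with -0.49 ± 0.37 (adjusted p = 0.335), and Hepacam2 at 1.9 to 44.8 CPM (median 11.96) and 0 to 23.2 CPM (median 16.6), with -0.44 ± 0.36 (adjusted p = 0.389). Double-mutant medians of plain CPM were above the control medians for all 4, which is the opposite side from the TMM values. In the 5 batches with both genotypes at 1 stage, the double-mutant mean CPM was lower in 2 batches for every gene but Foxi2, which was lower in 3, and without the batch of the double-mutant P90 replicate 4 it was lower in 1 and 2 of 4. With batch as a term, 4 of the 7 genes were below 0 and none was called.

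By stage, the genotype difference was near 0 at P40 and below 0 at P90. At P40, 0.175% of 9735 genes were called and none of the 7, with no unadjusted p under 0.05 and no call by DESeq2. The median over the 7 genes was -0.06, and 4 of them were below 0 with TMM and none without it. At P90, 4.07% of 8419 genes were called, again none of the 6 genes that passed the filter. Foxi2 did not pass it, with 0.95 to 24.8 CPM in control and 0 to 5.85 CPM in double-mutant glands at P90. The P90 values were -1.66 ± 0.51 for Foxi1 (adjusted p = 0.082), -1.57 ± 0.67 for Ascl3 (adjusted p = 0.179), -1.25 ± 0.46 for Slc4a11 (adjusted p = 0.126), -0.89 ± 0.36 for Atp6v1b1, -0.73 ± 0.59 for Hepacam2 and -0.65 ± 0.71 for Atp6v1g3, and 4 of these had an unadjusted p under 0.05, as had 23% of all genes. Without the double-mutant P90 replicate 4, Foxi2 passed the filter, at -1.96 ± 0.55 (adjusted p = 0.0545), Foxi1 was at -1.45 ± 0.42 (0.0598) and Ascl3 at -1.35 ± 0.56 (0.153). Without the 2 glands against their labelled sex, Foxi2 was at -2.03 ± 0.63 (0.119), Foxi1 at -1.45 ± 0.49 (0.153) and Ascl3 at -1.36 ± 0.67 (0.308), and none of the 7 was called in either fit. With all 13 glands, the 6 genes were also below 0 without TMM, where the split of all calls went from 240 higher and 103 lower to 569 and 38. DESeq2 called Foxi1. The interaction of genotype and stage was below 0 for all 7 genes, from -0.75 (Hepacam2) to -1.89 (Foxi2), but none was called, where 0.00914% of 10940 genes were. Of the 7, 3 had an unadjusted p under 0.05, and DESeq2 called none. Without the filter on low counts, Foxi2 and Slc4a11 were called for the interaction (adjusted p = 0.0404 and 0.0335), and Ascl3, Foxi1, Foxi2 and Slc4a11 at P90. These calls thus depended on the filter, and without it the calls over all genes rose too, to the counts given under processing below.

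**Figure D5:**
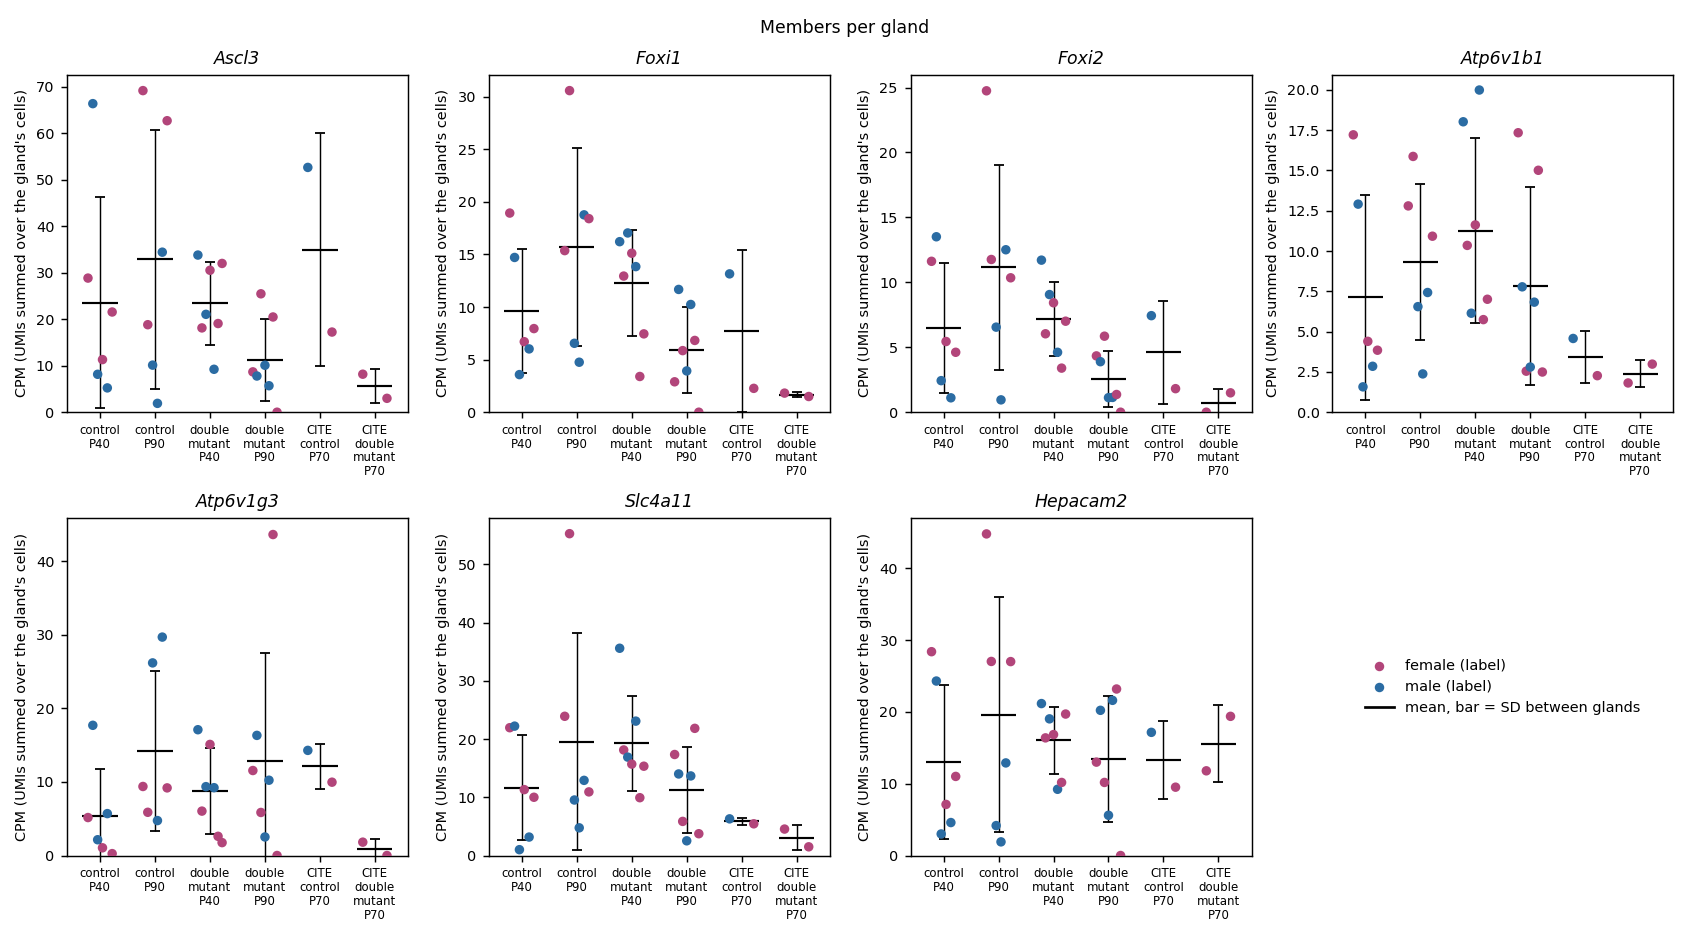
Level of each gene per gland (CPM of UMIs summed over all cells of a gland, linear axes from 0) in the 4 Drop-seq and 2 CITE-seq groups, with points coloured by labelled sex and the mean and SD between glands in black. Ranges of the groups overlap for every gene in Drop-seq, and 1 double-mutant P90 gland stands high for Atp6v1g3, at 43.7 CPM.

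Of 18 V-ATPase genes tested over the 26 glands, Tcirg1, which macrophages express, was higher (1.41 ± 0.31) and Atp6v1e1 (-0.54 ± 0.15) and Atp6v1d (-0.50 ± 0.16) were lower, where 21.9% of all genes were called. At P90, where 4.07% of all genes were called, Atp6v0d2 was lower (-1.21 ± 0.30, edgeR, adjusted p = 0.0386) and Tcirg1 was higher (1.79 ± 0.46). Atp6v0d2 was the tested pump gene of the list with the largest log2 fold change between cells with 2 or more of the genes and other cells. The summed macrophage markers were at 70.8 to 770 CPM in control and 596 to 8653 CPM in double-mutant glands at P40, and at 116 to 1871 CPM and 625.4 to 7775 CPM at P90, and their part in these values was not tested. Of 12 intercalated-cell and ionocyte genes, Coch (1.47 ± 0.52) and Kit (0.91 ± 0.28) were higher and Car12 was lower (-0.91 ± 0.22), again against 21.9% of all genes.

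Within the duct cluster richest in the genes, 4 of them could be tested and none was called, where 2.01% of 1392 genes were. No unadjusted p was under 0.05 and DESeq2 called none. The log2 fold changes were -0.52 ± 0.35 for Ascl3, -0.62 ± 0.31 for Foxi1, -0.15 ± 0.33 for Slc4a11 and -0.15 ± 0.29 for Hepacam2. Foxi2, Atp6v1b1 and Atp6v1g3 did not pass the filter on low counts there. In cells that held at least 2 of the other 6 genes, Ascl3 was at 756 ± 479 CPM in 11 control and 785 ± 412 CPM in 10 double-mutant glands, and Foxi1 at 339 ± 181 and 353 ± 130 CPM. In such cells Slc4a11 was at 358 ± 252 and 469 ± 163 CPM and Hepacam2 at 393 ± 195 and 507 ± 229 CPM. Foxi2 was at 226 ± 120 and 176 ± 92.5 CPM, Atp6v1b1 at 117 ± 55.6 and 144 ± 78 CPM, and Atp6v1g3 at 290 ± 375 and 325 ± 251.5 CPM. For each gene the means of both genotypes lay within 1 SD of each other. These cells were chosen by the same genes, and P40 and P90 were pooled. Glands with fewer than 10 such cells did not enter, so that the values do not compare levels over all glands.

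Between stages and sexes, Atp6v1g3 had the largest values of the 7 genes, but no call by the main test. In control glands, 8.18% of 7936 genes differed between P90 and P40 and none of the 7 did, with all 7 above 0 and Atp6v1g3 the highest at 1.42 ± 0.50 (adjusted p = 0.111), the only one of the 7 with an unadjusted p under 0.05. DESeq2 called none, and stage cannot be told apart from batch among controls. In the double mutants 0% of 8614 genes were called between stages, and 3 of the 6 genes tested had an unadjusted p under 0.05. DESeq2 called none of the 6. Between male and female control glands, 0.895% of 7936 genes were called. Atp6v1g3 had the largest value of the 7, 2.002 ± 0.505 (male over female, adjusted p = 0.0978), and the other 6 were below 0, from -0.38 (Ascl3) to -1.07 (Hepacam2). DESeq2 called Atp6v1g3, in a fit that also called more of all genes than edgeR did. In edgeR, 2 of the 7 genes had an unadjusted p under 0.05. The split of all calls between the sexes went from 57 higher and 14 lower to 31 and 18 without TMM, where Atp6v1g3 was at 1.65.

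In cells with at least 2 of the other 6 genes, Atp6v1g3 was at 0 to 152 CPM in 6 female control glands and at 148 to 1188 CPM in 5 male ones, which overlapped only between 148 and 152 CPM. In double mutants it was at 21.7 to 410 CPM in 5 female and 183 to 952 CPM in 5 male glands by label, where the 1 male-labelled gland whose transcripts went against its label was at 399 CPM. The double-mutant P90 replicate 3, labelled female and the gland with the highest whole-gland Atp6v1g3 (43.7 CPM), had fewer than 10 such cells and is not among these, and its level goes against the order of the sexes. These values were looked up after the whole-gland result was known and carry no test. The interaction of genotype and sex was called for 0% of 10940 genes. Of the 7, 1 had an unadjusted p under 0.05 and DESeq2 called none.

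In CITE-seq, 13.7% of 10058 genes were called between the genotypes, 4.47% as lower, and 2 of the 3 testable genes were lower in double mutants. Both passed the filter on low counts through the control glands, where they were high. Their direction is therefore not independent of the filter. Ascl3 was at 52.6 and 17.2 CPM in the control glands and at 8.17 and 2.98 CPM in the double-mutant glands, with a log2 fold change of -3.16 ± 0.67 (edgeR, adjusted p = 0.0232). Atp6v1g3 was at 14.3 and 9.97 CPM in control and at 1.82 and 0 CPM in double-mutant glands, with -3.99 ± 0.73 (adjusted p = 0.0174). Control and double-mutant values did not overlap for either gene. The share of all genes without overlap was not counted, so with 2 glands per group this is not read as a difference. DESeq2 called both. Leaving out 1 gland at a time, the Ascl3 call was lost without control replicate 1 (adjusted p = 0.0534), double-mutant replicate 1 (0.0784) or double-mutant replicate 2 (0.0619), and the Atp6v1g3 call without control replicate 1 (0.0951) or control replicate 2 (0.0539). The fit with 1 gland in a group takes that gland to vary like those of the other group. Hepacam2 was at 17.2 and 9.52 CPM in control and 11.8 and 19.4 CPM in double-mutant glands, with -0.51 ± 0.43 (adjusted p = 0.45). Foxi1, Foxi2, Atp6v1b1 and Slc4a11 had too few UMIs to be tested. Of the lists, Atp6v0d2, Tfcp2l1 and Car12 were lower and none was higher.

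Sex cannot be told apart from genotype in this experiment, as both double-mutant glands were labelled female and 1 control gland male. Xist and Y-linked transcripts were both found in all 4 glands. Xist was at 86.4 and 74.8 CPM in the control glands labelled male and female and at 175 and 230 CPM in the double-mutant glands, and the summed Y-linked genes were at 34.3, 32.2, 14.5 and 20.9 CPM, so that the labelled sexes could not be checked. The double-mutant glands had 11498 and 13948.5 CPM of summed macrophage markers against 2485 and 3338 CPM in controls, and 884 and 1376 CPM of the Klk1+ duct markers against 6118 and 6264 CPM. Their part in the lower levels was not tested. Cells with 2 or more of the genes made up 4.46% of 672 and 2.06% of 728 control cells and 0.313% of 638 and 0.201% of 497 double-mutant cells.

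On the surface of control cells, tags of EpCAM, the epithelial adhesion molecule, were more frequent on the cells with 2 or more of the genes. These values are given per gland with no test. The median centred log ratio of EpCAM tags, the tag count of a cell relative to its other antibodies, was 2.77 in 30 such cells against 0.88 in the others of the first control gland and 2.54 in 15 cells against 0.81 in the second. CD29, integrin β1, was at 2.52 against 1.83 and at 2.35 against 1.53. The tags of cKit, the product of Kit, were few, with a median of 6 tags against 2 in the first control gland and 3 against 1 in the second, and centred log ratios of -0.60 against -1.09 and -0.24 against -0.91. CD24 and CD133 differed by at most 0.22 in the control glands. The double-mutant glands had only 2 and 1 such cells with tags, so that no value is drawn from them.

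The bulk libraries, of 34515744 and 34729551 counted reads, gave the levels per length. Ascl3 was at 19.0 TPM, a length-scaled share of all transcripts, in the control gland at P70 and 7.01 in the double-mutant gland at P100, Atp6v1b1 at 5.39 and 2.32, Foxi1 at 2.96 and 1.73, Slc4a11 at 2.17 and 0.795, Hepacam2 at 1.94 and 0.873, and Foxi2 at 1.54 and 0.643. Atp6v1g3 was last, at 0.148 and 0.544 TPM, from 11 reads (exact Poisson interval 5.49 to 19.7) and 40 reads (28.6 to 54.5). The ubiquitous paralogs Atp6v1b2 and Atp6v1g1 were at 4.08 and 10.01 TPM in the control gland, so that Atp6v1b1 was above its paralog and Atp6v1g3 far below its own. Both bulk libraries were labelled female, the sex with the lower Atp6v1g3 among control glands, though without a call by the main test. The part of sex in the low bulk level was not tested.

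With 1 library per genotype there is no replicate check and no test, and genotype cannot be told apart from age. Among genes with at least 20 reads in the 2 libraries together, 9.78% of 13971 were lower by at least 2-fold in CPM in the double-mutant library and 5.15% were higher. Of the 7 genes, 5 were lower by at least 2-fold (2, Ascl3 and Slc4a11, with median-of-ratios scaling), with log2 ratios of -1.47 (Slc4a11), -1.46 (Ascl3), -1.28 (Foxi2), -1.24 (Atp6v1b1) and -1.17 (Hepacam2), Foxi1 was at -0.79, and Atp6v1g3 was higher, at 1.85 (exact interval of counting error 0.86 to 2.97). The median over the 7 was -1.24 and over all these genes -0.31. Of the pump genes, Atp6v0d2 was at -1.39 and Atp6v1c2, a further restricted subunit, at -1.38, whereas Atp6v1a (-0.19), Atp6v1d (-0.23) and Atp6v1e1 (-0.17) were near the typical gene. Atp6v1g3 was thus higher in the double-mutant library of this pair and lower in the double-mutant glands of CITE-seq. Labelled sex, age and method differed between the pair and CITE-seq, and their part in the opposite directions was not tested.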

How the data were processed

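Drop-seq, CITE-seq and bulk RNA data of mouse submandibular glands were used. For the single-cell tables the authors deposited raw UMI counts per gene and cell barcode (build mm10), and CITE-seq glands had a second deposited table of antibody tag counts. For bulk RNA the authors deposited read counts per gene from 2 libraries, and the submitters' processing notes name STAR and featureCounts. No column of values was left without a sample (0 columns).

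From the 26987 Drop-seq and 3095 CITE-seq barcodes deposited, cells with at least 100 genes and under 15% mitochondrial UMIs were kept, and under 2500 genes in CITE-seq, which left 23346 and 2535. No doublet caller was run. Cells were clustered by Leiden (resolution 1.0, 20 neighbours, 30 components of 2000 variable genes, scanpy 1.11.5, leidenalg 0.10.2) with the 7 genes held out, and clusters were named where at least 3 markers of a list were found. UMIs were summed per gland, filtered with filterByExpr and tested with edgeR 4.0.16 (TMM, quasi-likelihood, 2-sided, Benjamini-Hochberg over all genes tested, called at 0.05) in R 4.3.3. DESeq2 1.42.0 was an alternative. Cells with 2 or more of the genes were compared with the other cells in glands that had at least 10 of them, with the gland as a block. The genes named there were the 20 highest and 5 lowest by log2 fold change among genes called and changed one way in at least 90% of glands. Python 3.11.15 (numpy 2.4.6, scipy 1.17.1) computed shares, with exact Clopper-Pearson intervals at 95%, which cover counting error only. The tests were checked on simulated counts.

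The 7 genes and the gene lists were chosen with earlier results of these data known. The value of 1 gene of the intercalated-cell and ionocyte list is not reported here, although the counts and the median of the list hold it. Replicates are single glands of separate mice, sexes are as labelled, and the labels' batch codes were taken as processing batches. The alternatives were DESeq2, no low-count filter, no TMM, thinned counts, all barcodes, batch as a term, a replicate block and leaving out libraries.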

Additional observations from a re-analysis of the deposited data

Results flagged for a closer look

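Of 32 groups of gland values examined, 3 had 1 gland set far from the others by Dixon's 95% criterion, which chance meets in about 1 of 20 groups. Atp6v1g3 stood at 17.7 CPM in control P40 replicate 2, where the next of the 6 glands was at 5.7 CPM. Atp6v1g3 also stood at 43.7 CPM in double-mutant P90 replicate 3, where the next of the 7 glands was at 16.3 CPM. The share of cells with 2 or more of the genes was 4.71% in double-mutant P90 replicate 7 against 1.94% in the next gland, and that library had a median of 2781 UMIs per cell, the highest of its group.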

How the results depend on the processing

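Of 444 alternative values of the 7 genes, 398 kept their direction and their side of the threshold, 23 changed sign, 18 passed the threshold newly and 5 lost it. None of the 23 that changed sign was called, and the cause of the changes was not tested. In whole glands between genotypes, Atp6v1g3 changed to 0.034 with DESeq2 and 0.011 without double-mutant P90 replicate 4, and with batch as a term Atp6v1g3 was at 0.083, Hepacam2 at 0.12 and Slc4a11 at 0.093. Without TMM, Atp6v1b1 was at 0.20, Atp6v1g3 at 0.52 and Slc4a11 at 0.037 in whole glands, Ascl3 at 0.051, Foxi1 at 0.37, Foxi2 at 0.23 and Hepacam2 at 0.36 at P40, and Hepacam2 at 0.22 in CITE-seq. In the duct cluster with batch as a term, Hepacam2 was at 0.14 and Slc4a11 at 0.25. Atp6v1b1 at P40 was at -0.078 without the 2 glands against their sex labels, and Hepacam2 between control stages was at -0.21 with thinned glands. The genotype by sex value of Ascl3, 0.0069, turned to -0.11 (all barcodes), -0.057 (thinned glands), -0.42 (without those 2 glands) and -0.14 (without double-mutant P90 replicate 4).

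Between cells with 2 or more of the genes and other cells, Atp6v1b2 was at 0.027 in double-mutant glands alone, and without TMM Atp6v0d1 was at 1.35, Atp6v1b2 at 1.26, Atp6v1c1 at 1.42, Car12 at 0.63 and Car2 at 0.66.

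The counts of called genes moved by over 1.5 times as follows. With DESeq2 they were 619 at P40, 824 at P90, 8 for genotype by stage, 2 for genotype by sex, 644 in CITE-seq, 66 in the duct cluster, 170 between control sexes and 1 between double-mutant stages. Without the filter on low counts they were 1657 at P40, 1430 at P90, 189 and 57 for the interactions with stage and sex, 2356 in CITE-seq, 616 between control sexes, 2235 between control stages and 232 between double-mutant stages, and in that fit Ascl3 (adjusted p = 0.00764), Foxi1 (0.0101) and Foxi2 (0.00859) were called lower in whole glands, Ascl3, Foxi1, Foxi2 and Slc4a11 at P90, Foxi2 and Slc4a11 for genotype by stage, Atp6v1g3 between control stages, Atp6v1g3, Hepacam2 and Slc4a11 between control sexes, and Ascl3, Atp6v1g3, Foxi1 and Foxi2 in CITE-seq. Without TMM they were 5797 in whole glands, 607 at P90, 3107 in CITE-seq, 53 in the duct cluster and 3126 for cells with 2 or more of the genes. With thinned glands they were 1164 in whole glands, 1 at P40, 169 at P90, 38 between control sexes and 173 between control stages, and with cells thinned to 500 UMIs 577 genes were called in the cell comparison. With batch as a term they were 291 in whole glands, 0 for genotype by stage and 0 in the duct cluster. Without the 2 glands against their sex labels they were 1571 in whole glands, 7 at P40, 165 at P90, 0 for genotype by stage and 10 in the duct cluster. Without double-mutant P90 replicate 4, 2 genes were called for genotype by stage. The finer clustering gave 12 in the duct cluster and all deposited barcodes gave 495 in CITE-seq. Leaving out 1 CITE-seq gland at a time gave 380 to 1050 genes there. In the bulk pair, median-of-ratios scaling left 2 of the 7 genes at least 2-fold lower, Slc4a11 and Ascl3.

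A replicate block gave 403 called genes at P40, 829 at P90, where it called Ascl3 (-2.27, adjusted p = 0.0294) and Foxi1 (-2.16, 0.0286), and 10 between control sexes, and under this replicate block Ascl3 was at 0.39 between control sexes and at -0.50 for genotype by sex. The numbers name glands and do not pair them: over 12 same-numbered pairs the correlation of deviations was -0.29 to 0.44, 4 pairs exceeded 0.1 and 1 pair shared a batch.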
